A study of Homo sapiens with 7 samples.

Results

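MYC bound 1314 intergenic regions close to genes in DLD-1 MycER cells after MYC activation, which is 20.8% of the 6313 regions where both MYC libraries had a peak (exact binomial 95% interval 19.8 to 21.8%). They were chosen by position alone. Peaks of the 2 MYC libraries sharing 1 bp or more were joined, which gave 24855 regions. The 6313 with a peak in both libraries were kept, and each member had its centre outside every protein-coding gene, over 1 kb and up to 50 kb from the nearest end of such a gene. Of the remaining reproducible regions, 1756 lay within 1 kb of a protein-coding gene end, 2527 lay deeper inside such a gene and 716 lay over 50 kb away.

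DLD-1 is an established line of human colon adenocarcinoma cells, sold as ATCC CCL-221. Every group carried a retrovirus that expresses MycER, in which MYC is joined to part of the estrogen receptor and is switched on by 4-hydroxytamoxifen. The activated groups, MYC with 2 libraries and ATF4 with 2 libraries, had received 500 nM of the inducer for 8 hr, and the ATF4 control group, also with 2 libraries, had received vehicle. An IgG immunoprecipitation from activated cells was the remaining sample, and no peak list of it was used here. MYC binding in vehicle-treated cells was not analysed here. Cells without MycER were not given the inducer in any group, so its own effect and that of MYC activity cannot be told apart. The antibody against MYC (clone name N-262) was not described as telling MycER from the cells' own MYC. The labels do not say whether replicates were separate cultures, so p-values measure only the spread between these libraries, which may be technical.

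MYC is a transcription factor of growth and cell division that binds DNA together with its partner MAX. Its preferred sequence, the E-box CACGTG, is common in promoters, and when MYC is abundant it also occupies open chromatin at enhancers, which are regulatory elements away from promoters. In colon cancer cells MYC acts downstream of the Wnt pathway. Long non-coding RNA genes, tRNA genes and miRNA genes lie between protein-coding genes, so a region that is intergenic by protein-coding annotation can still be the promoter of a transcript.

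That last case can be read in the DNA sequence. Promoter windows of 300 bases, from 250 before to 50 after an annotated transcript start, lay under 41 of the 1314 members, and all belonged to genes that the choice of members did not use. The parts of 8 windows that lie inside a member are printed because they hold the strongest such members or the clearest E-boxes. They are RefSeq sequence of GRCh38.p14, written 5′ to 3′ on the transcript's strand. Capitals mark the E-box CACGTG, a weaker E-box with the letters CACGCG, or the site of the AP-1 factors FOS and JUN, written TGANTCA. Each was searched on both strands. The first and the last motif read the same on either strand, and the weaker E-box appears as CGCGTG on the opposite strand. No motif contains another. The last motif, and the regions near LOC124904918, FAM222A-AS1, LOC101927712, OIP5-AS1 and SNHG16, were picked after the sequences had been seen.
LINC02709, chr11:9759760-9759783, minus strand: gtggttgTGACTCAgctgcacatg
LINC01730, chr20:3808244-3808379, plus strand: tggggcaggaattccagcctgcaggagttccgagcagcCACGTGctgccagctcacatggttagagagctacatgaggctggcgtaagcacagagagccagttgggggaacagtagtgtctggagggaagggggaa
LOC124903001, chr12:103925439-103925522, plus strand: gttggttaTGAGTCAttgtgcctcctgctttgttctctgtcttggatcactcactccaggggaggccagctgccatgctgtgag
SNHG16, chr17:76557722-76557813, plus strand: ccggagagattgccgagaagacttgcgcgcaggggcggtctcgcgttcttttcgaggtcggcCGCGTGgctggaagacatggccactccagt
LOC124904918, chr20:46739896-46740081, plus strand: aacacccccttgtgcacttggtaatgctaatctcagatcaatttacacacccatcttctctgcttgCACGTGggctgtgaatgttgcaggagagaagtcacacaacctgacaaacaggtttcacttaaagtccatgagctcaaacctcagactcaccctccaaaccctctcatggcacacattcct
FAM222A-AS1, chr12:109773438-109773534, minus strand: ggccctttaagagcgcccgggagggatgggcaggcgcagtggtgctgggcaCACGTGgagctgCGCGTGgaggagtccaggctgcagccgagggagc
LOC101927712, chr13:110138704-110138864, minus strand: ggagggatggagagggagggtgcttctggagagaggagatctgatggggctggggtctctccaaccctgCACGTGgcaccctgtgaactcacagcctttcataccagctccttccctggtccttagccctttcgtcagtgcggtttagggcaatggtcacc
OIP5-AS1, chr15:41283740-41283804, plus strand: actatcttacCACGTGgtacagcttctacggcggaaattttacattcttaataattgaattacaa

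CACGTG stood in 10 of the 42 whole windows under members (23.8%, exact interval 12.1 to 39.5%), against 7.26% of all 35116 RefSeq windows of this length. The share was 22.7% in the windows under MYC regions at protein-coding gene ends and 24.8% in those under MYC regions deeper inside genes. CACGCG stood in 7 of the 42 windows (16.7%), against 11.4% of all windows and 25.9% of those at protein-coding gene ends. TGANTCA stood in 9 of the 42 windows (21.4%, 10.3 to 36.8%), against 7.71% of all windows. In the windows at protein-coding gene ends TGANTCA was at 4.49%, and in the 18 windows under MYC regions over 50 kb from a gene it was at 38.9%. Within the bases that lie inside the 41 members, CACGTG was found in 9, CACGCG in 4 and TGANTCA in 3, and none of those 3 also held CACGTG. The mean GC content was 58.5% in the windows under members, 60.9% at gene ends and 57.5% over all windows. A match is a run of letters and not a measured binding site.

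The normalized tag count, called tags here, is the number of reads in a peak scaled to a common library size of 10 M. Replicate 1 held 21.0 M reads and replicate 2 held 50.1 M, so 1 read is worth 0.475 tags in the former and 0.200 in the latter. Over the 1314 members the median was 6.18 tags in replicate 1, which is 13 reads, and 8.58 tags in replicate 2, which is 43 reads. Values ran from 3.8 to 32.3 tags in replicate 1 and from 2.99 to 44.3 in replicate 2. Most members were therefore weak, with 170 over 10 tags in both libraries and 13 over 20. Replicate 2 was the higher of the libraries at 1050 members, and the members' ratio of replicate 2 to replicate 1 ran from 0.572 to 3.24 around a median of 1.34.

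**Figure D1:**
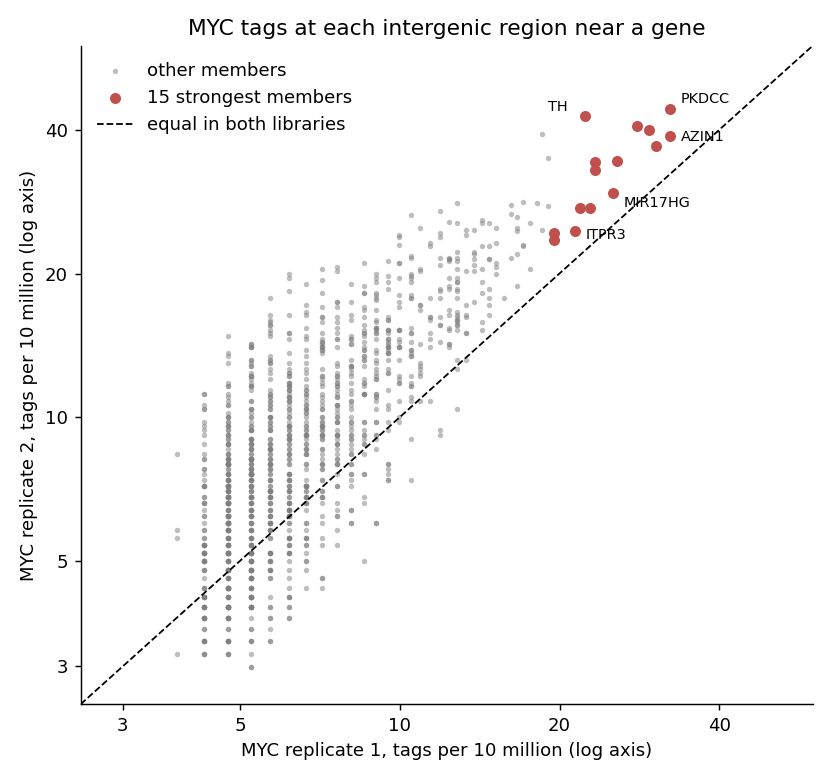
MYC tags per 10 M reads at each of the 1314 members, replicate 1 on the horizontal and replicate 2 on the vertical log axis, with the 15 strongest members in red. Most points sit above the dashed line of equal values, and the vertical stripes at low values are single reads of replicate 1.

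The replicate 1 median did not separate members from MYC regions elsewhere, and in replicate 2 members were slightly weaker than those at gene ends. In replicate 1 the median was 6.18 tags in each position class. Single reads are worth 0.475 tags there, so a small difference would not show. The upper quartile was 8.08 tags at members, at gene ends and inside genes, and 7.61 over 50 kb away. In replicate 2 the median was 9.78 tags at gene ends, 8.78 inside genes, 8.58 at members and 8.18 over 50 kb away, and the quartiles of members, 5.99 and 12.8, overlapped those at gene ends, 6.99 and 14.2. Among the 100 strongest MYC regions 19 were members, close to their share of all regions. By the authors' focus ratio, a fraction given for each peak, members and gene ends had the same replicate 1 median of 0.75. The authors' fold over the background library was 10.3 (replicate 1) and 12.1 (replicate 2) at the median member, and 41 members were under 4-fold in both.

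**Figure D2:**
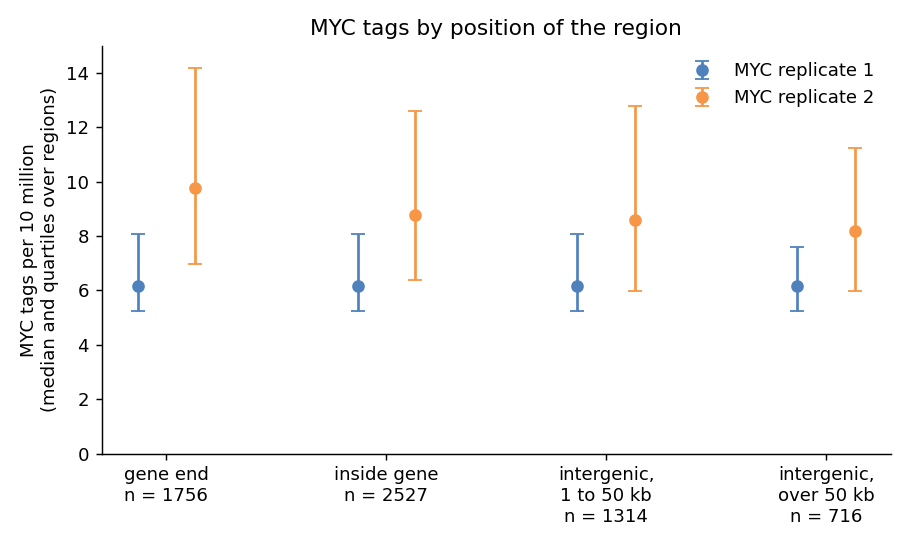
MYC tags per 10 M reads by position of the region, with a point for the median over regions and bars for the quartiles, separately for the 2 MYC libraries. The replicate 1 medians are equal at 6.18 tags, and the replicate 2 medians fall from 9.78 at gene ends to 8.18 far from genes.

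How often a peak was found again differed with position. Of the 1813 replicate 1 peaks at intergenic positions near genes, 72.5% overlapped a replicate 2 peak (exact interval 70.4 to 74.6%). The same share was 83.3% for peaks at gene ends, 72.4% inside genes and 58.4% over 50 kb away. From the deeper replicate 2, 28.6% of the 4605 peaks at these positions overlapped a replicate 1 peak. Peaks at these positions that were not found again were weak, at medians of 4.75 tags (replicate 1) and 4.19 tags (replicate 2) against 6.18 and 8.58 for those found again. The part of library depth in these shares was not tested.

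The strongest member lay 18060 bp from PKDCC, which encodes a secreted tyrosine kinase of skeletal development, on chr2:42076482-42076672. It had 32.3 tags in replicate 1 and 44.3 in replicate 2, and no non-coding gene end lay within 1 kb. The next had 32.3 and 38.9 tags, 18659 bp from AZIN1, a regulator of polyamine synthesis, and lay inside the lncRNA gene GASAL1, 613 bp from its end. The member near SWAP70, a signalling adaptor of the actin cytoskeleton, had 30.4 and 37.1 tags and its centre 330.5 bp from an end of LINC02709, part of whose promoter window is printed above. All 3 had over 30 tags in both libraries.

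BCL2L11 encodes BIM, a protein that triggers apoptosis. The member 17283 bp after its end, on chr2:111185640-111185816, had 29.5 tags in replicate 1 and 39.9 in replicate 2. DOCK6, an activator of small GTPases, had a member 3474 bp away with 28.0 and 40.7 tags. KRT80, an epithelial keratin, had a member 11194 bp away with 25.7 and 34.5 tags. The noradrenaline transporter gene SLC6A2 had a member 32773.5 bp away with 23.3 and 34.3 tags, at 101-fold and 149-fold over background. In contrast to these, the members near ITPR3 (21.4 and 24.5 tags), a calcium channel of the endoplasmic reticulum, and near IFNLR1 (19.5 and 24.3), a receptor of lambda interferons, differed by less between libraries.

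CDC25B encodes a phosphatase that drives entry into mitosis, and the member 2176 bp after its end had 23.3 and 32.9 tags. That member lies before the start of LINC01730, 203 bp from it by its centre, and covers the E-box printed above. The members near HTRA3, a secreted protease, had 22.8 and 27.5 tags, near the Wnt inhibitor gene DKK3 21.9 and 27.5, and near CLN8, a protein of the endoplasmic reticulum, 19.5 and 23.5. The member 30753 bp from TH, the enzyme of dopamine synthesis, had 22.3 and 42.7 tags, the widest gap between libraries among the 15 strongest. All 15 were higher in replicate 2, by 1.14 to 1.91 times. Of these 15, 4 had a non-coding gene end within 1 kb, 6 had their centre inside a non-coding gene, and 1 had a nearest gene with a MYC region at its own end. Over all 1314 members these shares were 16.6%, 27.5% and 12.6%, and no difference from them was tested.

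Members at either limit of the distance window had values in the range of the rest. Just over 1 kb from a gene end, the member near GSTP1, a glutathione transferase, lay 1006 bp away with 6.18 and 9.58 tags and that near FSCN2 lay 1032 bp away with 11.9 and 17.8. Just under the limit and so not members, the regions near SLC35E4 (989.5 bp) and VMP1 (998 bp) had 4.75 and 8.78, and 6.65 and 6.99 tags. At the other limit, the last members inside were those near SLC2A1 (49723 bp, 8.56 and 12 tags) and C8orf89 (49927.5 bp, 6.65 and 8.58). The first regions beyond it lay near RB1CC1 (50090 bp, 11.4 and 18.2) and GTF3A (50093.5 bp, 4.75 and 6.99).

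The distance to the nearest protein-coding gene end had a median of 11972 bp, with quartiles of 5356 and 24621 bp. From 1 to 2 kb there were 92 members, from 2 to 5 kb 211, from 5 to 10 kb 276, from 10 to 25 kb 413 and from 25 to 50 kb 322. Median tags hardly moved with distance, from 5.7 in replicate 1 and 8.68 in replicate 2 in the nearest bin to 6.18 and 8.18 in the farthest. The nearest gene had a MYC region at its own end for 165 members (12.6%, exact interval 10.8 to 14.5%). Over all 20050 protein-coding genes, 10.1% had such a region, and the share by distance was between 10.9 and 15.6%. The strand of the nearest gene was known for 966 members (73.5%), too few to say over the members which side of genes they lie on.

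**Figure D3:**
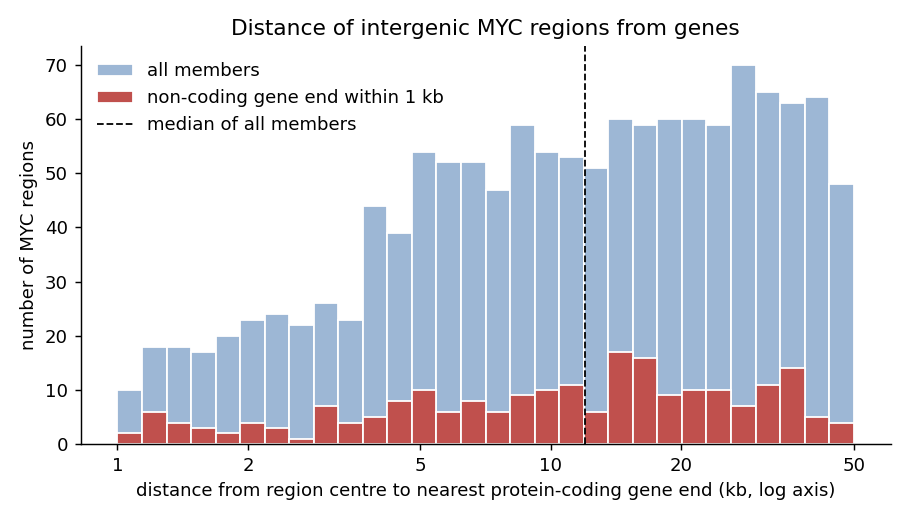
Number of members by distance from the region's centre to the nearest protein-coding gene end, in bins of equal width on a log axis, with members at a non-coding gene end in red. The dashed line is the median of 11972 bp, and red bars occur over the whole range of distances.

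The members had 1119 nearest genes, of which 960 had a single member, 129 had 2 and 30 had 3 or more. NT5M, a mitochondrial nucleotidase, had the most, with 5 members from 7454 to 40232.5 bp after its end, all between 4.75 and 6.65 tags in replicate 1 and between 3.79 and 9.78 in replicate 2. SLC2A1, the glucose transporter GLUT1 that supplies glycolysis, had 4 members before its start. They lay 8396, 13047, 21636 and 49723 bp away, with 9.03, 10.5, 4.75 and 8.56 tags in replicate 1 and 15.8, 11.8, 7.18 and 12 in replicate 2. DYM, PDP1 and PRAG1 also had 4 members each, between 5.23 and 9.98 tags in replicate 1. AUH was among the genes with 3.

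Most members had no other MYC region with a peak in both libraries within 10 kb. Such a region lay within 10 kb of 298 members (22.7%), a share not computed for the other position classes. Regions with a peak in only 1 MYC library were not counted. Members spaced by 10 kb or less formed 12 groups of 3 or more. Between SLC1A5, the glutamine transporter ASCT2, and AP2S1, 3 members within 6.88 kb had 8.56 to 14.3 tags in replicate 1 and 16.8 to 22.8 in replicate 2, the strongest such group in replicate 2 by its highest value. The densest was near POP1, a subunit of RNase P and MRP, with 3 members in 1.07 kb and 5.7 to 7.61 tags in replicate 1. Near GRHL1, an epithelial transcription factor, 3 members in 2.66 kb had 6.18 to 8.08 tags. These groups were named after their values were seen.

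Non-coding genes lay at some of the members. The term covers every annotated gene that is not protein-coding, and so includes pseudogenes. A pseudogene end was within 1 kb of 24 members and a transcribed pseudogene end within 1 kb of 11. A non-coding gene end was within 1 kb of 218 members (16.6%, exact interval 14.6 to 18.7%). That share was 22.8% at MYC regions of protein-coding gene ends, 7.20% inside genes and 13.0% over 50 kb away. Over all 6313 MYC regions it was 14.2%. An lncRNA end was within 1 kb of 162 members (12.3%), against 11.4% of all MYC regions. The centre lay inside an lncRNA gene at 321 members (24.4%). That was so for 16.8% of all MYC regions and for 39.1% of those over 50 kb away. The remaining 852 members (64.8%) lay outside all annotated genes and over 1 kb from their ends. Members at a non-coding gene end had medians of 6.18 and 8.98 tags, against 6.18 and 8.38 for the others.

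**Figure D4:**
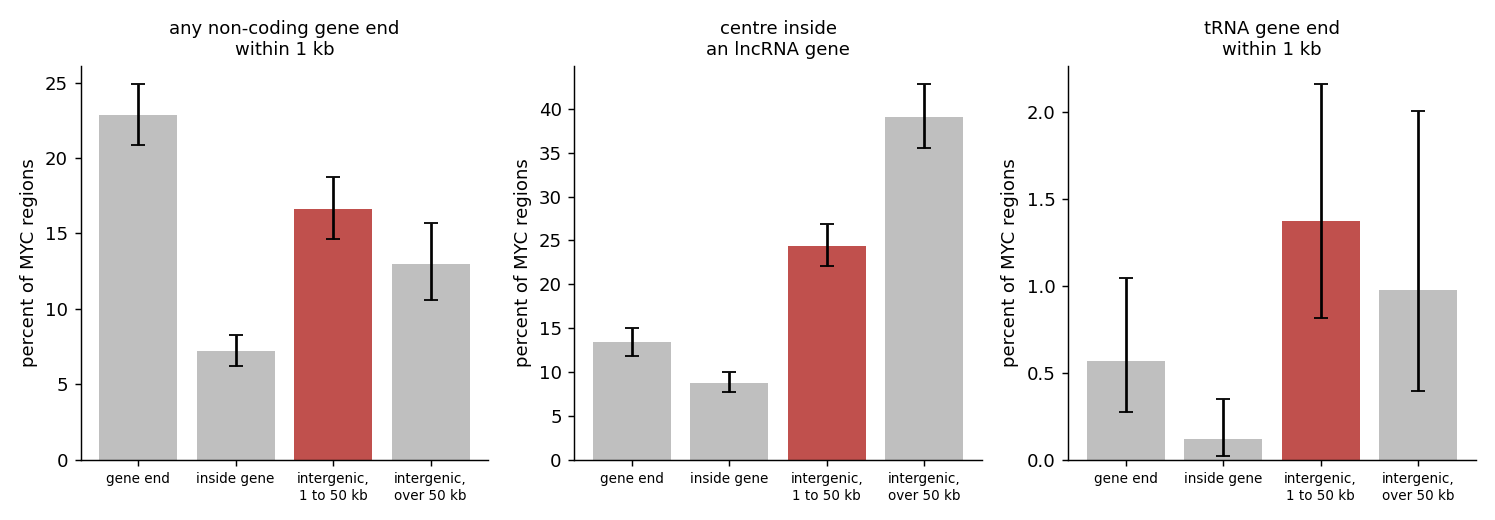
Share of MYC regions with a non-coding gene end within 1 kb (left), with their centre inside an lncRNA gene (middle) and with a tRNA gene end within 1 kb (right), by position, with exact 95% binomial intervals. Members (red) stand at 16.6%, 24.4% and 1.37%.

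The fourth of the strongest members at a non-coding gene end, after those of GASAL1, LINC02709 and LOC124907868 near BCL2L11, was that of LINC01730. SNHG15, a host gene of small nucleolar RNA, came next, with a member 299.5 bp from its end at 18.5 tags in replicate 1 and 39.3 in replicate 2. The member at LOC107985005 near SLC39A11 had 16.6 and 24.9 tags and also lay inside LINC00511. The member at LOC124903001 lay 4880 bp before HSP90B1, the gene of an endoplasmic reticulum chaperone, and had 16.2 and 26.7. At LOC105372903 near the zinc exporter gene SLC30A1 they were 15.2 and 20. All 5 of these, with LINC01730, were above 15 tags in both libraries.

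tRNA genes, which are transcribed by RNA polymerase III, had an end within 1 kb of 18 members (1.37%, 0.814 to 2.16%), against 0.569% of MYC regions at protein-coding gene ends, 0.119% of those inside genes and 0.978% (0.394 to 2.00%) of those over 50 kb away. The members' interval overlaps those at gene ends and over 50 kb away. The strongest lay 72.5 bp from the threonine tRNA gene TRT-TGT3-1, with 17.1 and 22.8 tags, and 364 bp from TRX-CAT1-8 near NARF, with 16.2 and 27.9. Their folds over background differed, at 6.34 and 5.47 for the former and 23.3 and 30.2 for the latter. Over the 18 members tags ran from 4.75 to 17.1 in replicate 1 and from 4.59 to 28.1 in replicate 2, and 3 were under 4-fold over background in both. Members at tRNA genes fell on several chromosomes, with 5 on chromosome 6. tRNA genes have near-identical copies, so reads there can be assigned to the wrong copy.

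A list of 33 non-coding genes tied to MYC or to growth held 9 with a member at an end or inside (27.3%, exact interval 13.3 to 45.5%), against 2.04% of all lncRNA genes. The 9 were SNHG5, SNHG8, SNHG15, SNHG16, ZFAS1, MIR17HG, LINC00511, MIR23AHG and DANCR, several of them host genes of small nucleolar RNAs. The list was drawn up with earlier results of these data known, so its share is a description.

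MIR17HG, the host of the miR-17 to miR-92 cluster of growth-promoting miRNAs and a textbook MYC target, had the seventh strongest member by the lower of its tag counts. It lies on chr13:91349150-91349326, 1551 bp after the gene's first base and 1367 bp before the MIR17 hairpin, with 25.2 tags in replicate 1 and 29.5 in replicate 2. By protein-coding annotation it counted as intergenic, since its nearest such gene was GPC5, 49383 bp away. A miRNA hairpin lay within 5 kb of 17 members, a distance chosen after the data were seen. The RefSeq source used here gave 39 mature sequences for the hairpins near these members, which may not be all of them. Of the 39, 10 are printed as examples, and some of the printed seeds recur. They are RefSeq sequence, with the seed, bases 2 to 8, in capitals.
hsa-miR-17-5p: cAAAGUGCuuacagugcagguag
hsa-miR-20a-5p: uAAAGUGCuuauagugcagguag
hsa-miR-18a-5p: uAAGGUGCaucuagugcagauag
hsa-miR-19a-3p: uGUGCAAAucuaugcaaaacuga
hsa-miR-19b-3p: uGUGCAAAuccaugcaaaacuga
hsa-miR-92a-3p: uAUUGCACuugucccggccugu
hsa-miR-92b-3p: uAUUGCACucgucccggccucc
hsa-let-7i-5p: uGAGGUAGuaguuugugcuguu
hsa-miR-200b-3p: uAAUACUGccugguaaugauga
hsa-miR-429: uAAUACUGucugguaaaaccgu

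Within MIR17HG, miR-17-5p and miR-20a-5p share a seed, as do miR-19a-3p and miR-19b-3p. So do miR-19a-5p and miR-19b-1-5p, which are not printed. The seed of miR-92a-3p recurs in miR-92b-3p on another chromosome, whose hairpin lay 659.5 bp from a member near THBS3 with 5.7 tags in replicate 1 and 16 in replicate 2. The let-7i hairpin, of a family known to restrain growth, lay 1201 bp from a member near MON2 with 9.03 and 15.4 tags. miR-200b-3p and miR-429, which share a seed and are known to maintain epithelial identity, lay 2014 and 3915 bp from a member near TTLL10 with 5.23 and 8.58 tags. The member inside MIR23AHG, host of miR-23a and miR-27a, had 8.56 and 21.0 tags. MIR17HG thus held the strongest of these members in both libraries.

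Among transcription factors of epithelium and gut, 9 of 24 were the nearest gene of a member (37.5%, exact interval 18.8 to 59.4%), against 5.58% of all protein-coding genes. Genes differ in how much intergenic DNA surrounds them, which was not tested. This list and the lists below were also drawn up with earlier results of these data known, so their shares are descriptions. CDX2, which sets intestinal identity, had a member 7825.5 bp after its end with 9.03 tags in replicate 1 and 8.58 in replicate 2, at 78.2-fold and 37.2-fold over background. SOX4 had a member 6702 bp before its start with 7.61 and 8.18 tags. CDX1 had 2 members, with 6.65 and 7.18 tags at the first and 4.28 and 5.39 at the second. ELF3, EHF, KLF3, KLF6 and GATA6 of this list were also nearest to a member.

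The markers of colon epithelium, with which this list shares genes, were nearest to a member for 4 of 12, namely EPCAM, CDX1, CDX2 and ELF3. None of 6 blood, 8 fibroblast and 6 neuron markers was, which allows shares of up to 45.9%, 36.9% and 45.9% by the exact interval. EPCAM, an epithelial adhesion protein, had 2 members, at 10.5 and 11.6 tags and at 5.23 and 9.38. Binding near a gene is not its expression, so the marker counts describe position only.

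Of Wnt target and feedback genes, 3 of 20 were nearest to a member. CCND1, which encodes cyclin D1, had 2, at 13.8 and 21.4 tags 4582 bp away and at 5.7 and 17.8 tags 3035 bp away. SP5 had 2 members, the stronger at 8.08 and 7.58 tags, and NOTUM, a secreted Wnt inhibitor, had 1 at 6.18 and 11.4. In the MYC partner network 2 of 13 were, with MAX at 5.23 and 14 tags and MXD4, which competes with MYC for MAX, at 4.75 and 6.19. AP-1 and immediate early genes gave 4 of 20 (20%, exact interval 5.73 to 43.7%), with the strongest members near KLF10 (10.9 and 17.2 tags), IER3 (8.08 and 9.18) and DUSP1 (7.13 and 11.6).

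Several lists covered the core growth programs that MYC is known for. Of 25 genes of ribosome biogenesis 1 was nearest to a member (4.0%, exact interval 0.101 to 20.4%), RRP12 with 6.18 and 9.18 tags. Translation factors gave 1 of 19, EEF1A1 with 4.75 and 9.18 tags, and chaperones 1 of 16, BAG3 with a stronger member at 6.18 and 7.18. Nucleotide synthesis gave 4 of 22 (18.2%, 5.19 to 40.3%), among them RRM2 and RRM1, subunits of ribonucleotide reductase, with 9.03 and 11 and with 8.08 and 12.8 tags, and PRPS1 with 5.23 and 13.2. Over all protein-coding genes the share was 5.58%. No difference between lists was tested, and the shares are descriptions. MYC regions at the ends of protein-coding genes or inside them are not members. The shares therefore do not measure MYC binding at the listed genes themselves.

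Cell cycle genes gave 2 of 21, CCND1 and CDKN2B (5.7 and 4.99 tags), and glycolysis 1 of 20, SLC2A1. Stress response regulators gave 3 of 24. They were GDF15, a secreted stress factor (8.08 and 10.6 tags), DDIT4, an inhibitor of mTORC1 (7.61 and 6.39), and NUPR1 (4.75 and 5.19). Amino acid transport and synthesis gave 2 of 23, SLC1A5, with the stronger of its members at 14.3 and 22.8 tags, and SLC7A5, at 5.23 and 9.38 and at 5.23 and 5.19.

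The MYC libraries differed most at a few members. RHEB, an activator of mTORC1, had a member at 6.18 tags in replicate 1 and 20 in replicate 2, a ratio of 3.24. GADD45B followed with 6.18 and 19.6 tags and CCND1 with 5.7 and 17.8. In the other direction the member near LOC101927345 had 5.23 tags in replicate 1 and 2.99 in replicate 2, as did that near NVL, and a second one near SLC39A11, inside LINC00511, had 8.56 and 4.99. The replicate 1 values of these 6 rest on 5.23 to 8.56 tags, that is on few reads.

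ATF4 drives the integrated stress response, a program that induces amino acid supply genes, and its lists were not used to choose the members. In activated cells, peaks lay at intergenic positions near genes for 21.0% and 20.4% of the MYC lists and for 23.8% and 25.1% of the ATF4 lists. Both MYC libraries were below both activated ATF4 libraries. The ATF4 lists of control cells stood at 21.2% and 21.9%, closer to the MYC lists. The means were 20.7% ± 0.393 (SD, n = 2) for MYC and 24.4% ± 0.903 (SD, n = 2) for ATF4, and the two-sided exact permutation test over libraries gave p = 0.33, the smallest that 2 against 2 libraries allow. Within replicate 1 the difference was 21.0 against 23.8% and within replicate 2 20.4 against 25.1%.

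Few members carried ATF4, and so did few MYC regions at any position. Of the 1314, 22 overlapped a peak of any ATF4 library and 16 (1.22%, exact interval 0.698 to 1.97%) overlapped an ATF4 region with a peak in both activated libraries. The same share was 0.513% at MYC regions of gene ends, 1.35% inside genes and 0.838% over 50 kb away. Over all 6313 MYC regions it was 1.03%, near that of the members. A peak of any ATF4 library lay on 1.67% of members and on 1.74% of all MYC regions. Of each ATF4 list, 0.655% and 0.633% of control peaks and 1.34% and 0.896% of activated peaks lay on a member. The means were 0.644% ± 0.0154 (SD, n = 2) in control and 1.12% ± 0.313 (SD, n = 2) in activated cells, with an exact permutation p = 0.33, which is the smallest possible here. Activated replicate 2 exceeded control replicate 2 by less than replicate 1 did, so the direction was the same within both replicate numbers.

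At the 16 shared members ATF4 had 4.41 to 15.2 tags in activated replicate 1 and 3.62 to 15.7 in activated replicate 2. The centres of the MYC and ATF4 regions were a median of 52.5 bp apart. The overlap by which these members were chosen itself keeps this gap small. MYC tags exceeded ATF4 tags at 8 of the 16 in replicate 1 and at 9 in replicate 2. The tags come from different immunoprecipitations, so these counts do not compare how much of each factor was bound. In control cells 6 of the 16 had a peak in both ATF4 libraries, 5 had it in 1 library and 5 in neither. Over all 352 ATF4 regions with a peak in both activated libraries, 43.2% had no control peak, so the members' 31.2% was not high.

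**Figure D5:**
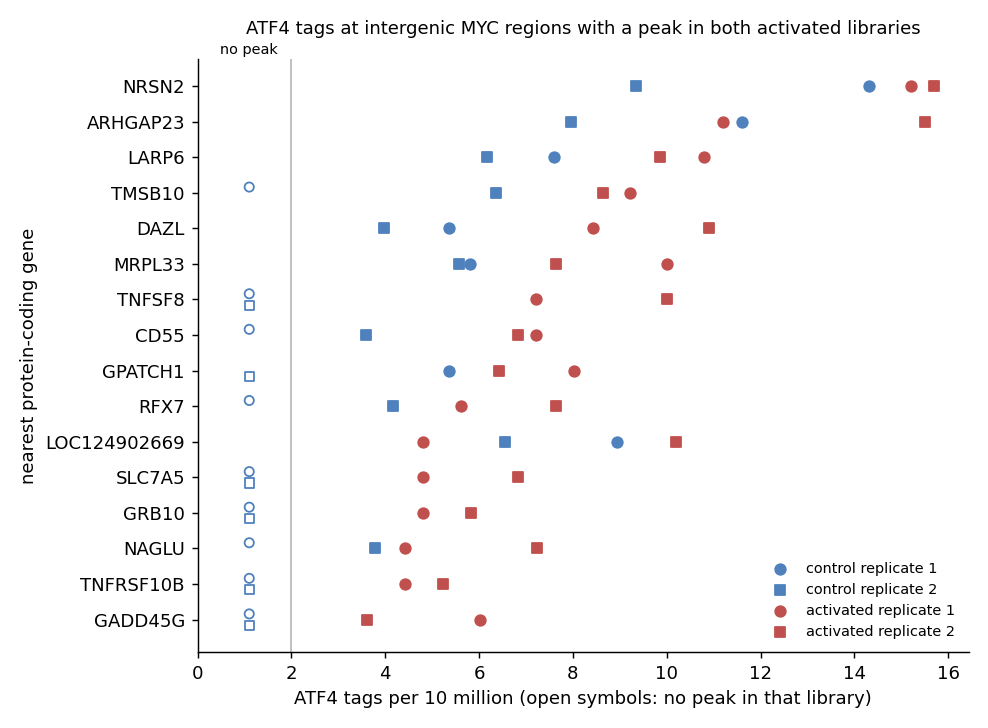
ATF4 tags per 10 M reads at the 16 members with an ATF4 peak in both activated libraries, blue for control and red for activated, circles for replicate 1 and squares for replicate 2. Open symbols mark libraries with no peak, and at NRSN2, LARP6, DAZL and MRPL33 both red symbols lie above both blue ones.

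The shared members without a control peak lay near SLC7A5, TNFSF8, GRB10, TNFRSF10B and GADD45G, of which the last 3 were chosen after their values had been seen. SLC7A5 encodes the large neutral amino acid transporter LAT1, a known ATF4 target. Its member, 22986.5 bp after the gene's end, had 4.81 and 6.83 ATF4 tags in activated cells and 5.23 and 9.38 MYC tags. TNFSF8, the CD30 ligand gene, had 7.22 and 10.0 ATF4 tags, and GADD45G, a gene of the DNA damage response, had 6.01 and 3.62. No peak says only that the value was below the detection limit of a list, whose lowest values were 4.46 tags in control replicate 1 and 2.98 in control replicate 2.

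Members with a single control peak lay near TMSB10, an actin-binding peptide gene, with 6.36 tags in control replicate 2 and 9.22 and 8.64 in the activated libraries, and near CD55, GPATCH1, RFX7 and NAGLU. CD55, which protects cells from complement, had 3.58 tags in control replicate 2 and 7.22 and 6.83 after activation. RFX7 had 4.17 tags in control replicate 2 and 5.61 and 7.64 after activation, with MYC at 9.98 and 21.0 tags. At all 5, of which NAGLU was added after its values had been seen, both activated values were above the only control value. Having peaks in both activated lists and in only 1 control list favours this order. The same count over all 95 reproducible activated ATF4 regions with 1 control peak was not made.

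ATF4 tags were tested at the 105 regions that all 4 ATF4 libraries had in common, by limma on log2(tags + 1) with Benjamini-Hochberg adjustment over the 105. Of these, 37.1% were higher after activation at an adjusted p under 0.05 and none was lower (0%), with 57 higher and 0 lower at an unadjusted p under 0.05. Over the same regions, 73.3% had both activated libraries above both control libraries. The 6 members among them gave 1 called higher, none called lower and 4 without overlap, so they did not stand apart from the rest. Their median log2 difference was 0.47, against 0.54 over all 105 regions.

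The called member lay 35776 bp from DAZL, the gene of a germ cell RNA-binding protein. It had 5.36 and 3.98 ATF4 tags in the control libraries and 8.42 and 10.9 in the activated ones, a log2 difference of 0.91 ± 0.26 (SE) with a limma adjusted p = 0.00904. Both activated values were above both control values. NRSN2 had the most ATF4 and MYC, with 14.3 and 9.34 tags in control, 15.2 and 15.7 after activation, and 15.2 and 24.9 MYC tags. Its log2 difference of 0.39 ± 0.29 did not pass, with a limma adjusted p = 0.253.

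MRPL33, a mitochondrial ribosomal protein gene, went from 5.8 and 5.57 to 10.0 and 7.64 tags, a log2 difference of 0.54 with a limma adjusted p = 0.0865. LARP6, whose protein binds collagen mRNA, had 7.59 and 6.16 tags in control and 10.8 and 9.85 after activation (0.53, limma adjusted p = 0.125). At ARHGAP23, the gene of a GTPase-activating protein, the groups overlapped, with 11.6 and 7.95 against 11.2 and 15.5 tags (0.42, limma adjusted p = 0.218). At LOC124902669 they overlapped as well, with 8.93 and 6.56 against 4.81 and 10.2 tags (-0.10, limma adjusted p = 0.77).

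These calls depended on the scaling and on every library. With each library centred on its median, the median log2 difference over the 105 regions went from 0.54 to -0.11. Centring thus took out more than 0.54. No region was then called higher by limma and 9 of 105 were called lower. At an unadjusted limma p under 0.05, 2 were higher and 18 lower. DAZL then stood at 0.27 with a limma adjusted p = 0.535, and LOC124902669 at -0.75 with a limma adjusted p = 0.0281. Leaving out any 1 of the 4 libraries, or adding the replicate number as a block, left no region called by limma, with 24 to 47 higher at an unadjusted p under 0.05. A shift of the whole library and a change at these regions cannot be told apart here.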

How the data were processed

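ATF4 and MYC were profiled by ChIP-seq in DLD-1 MycER cells, and each of 6 libraries had its own peak list. Per the submitters' processing notes, Bowtie 0.12.9 and HOMER were used with hg38, and their settings are not given in the sources used here. Tags in the text are a signal, the tag count per peak after the authors' scaling to 10 M tags. Each deposited list further holds a score, a focus ratio (a fraction), a fold over the background library and a p-value for each peak, which are the authors' own and were used only to describe or filter peaks. Per the file headers the lists hold total tags, which are a raw count in replicate 1 and scaled in replicate 2. A planned count test with edgeR was therefore replaced by the planned limma test. Depth came from the smallest spacing of tag values, and binomial intervals cover counting error only. The background library is not named in the file headers.

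Genes were those of GRCh38.p14, whose table gives spans without strand, and strand came from the RefSeq promoter table. The strongest peak per library gave a region's tags. The files were read with Python 3.11.15, SciPy 1.17.1 and pandas 2.3.3, and fits used R 4.3.3 and limma 3.58.1, tested on simulated data. Regions are not replicates, so only libraries were compared by tests. Named regions were the 15 strongest by the lower tag count, the 10 strongest within 1 kb of a non-coding gene end, up to 12 shared with ATF4, the 6 genes with most members, the 3 largest differences between libraries each way, 2 at each side of each limit, up to 3 per gene list and up to 8 sequences. The members and lists were chosen with earlier results of these data known. Alternatives covered peak thresholds, overlap, distance limits, pseudocount, scaling, the replicate block and leaving out each library. No genome sequence was used here beyond promoter windows and miRNAs.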

Additional observations from a re-analysis of the deposited data

How the results depend on the processing

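The number of members was 740 when both peaks had to reach 8-fold over background and 852 outside annotated genes of any type, and 1210 and 1011 with an overlap of at least 50% of the shorter peak and a lower limit of 5 kb. With 1 MYC library left out it ran from 1813 to 4605, since the regions of a single list were then counted. The share at a non-coding gene end was 11% within 500 bp and 39.3% within 5 kb, and 15.4 to 16.2% without either MYC library. The share of peaks at these positions was lower for MYC than for ATF4 under each alternative tried, by -6.61 to -3.06 percentage points. The excess of activated over control ATF4 peaks on members, 0.473 points, kept its direction, at 0.252 to 1.19 points with 1 library left out. Members shared with ATF4 numbered 14 under the stricter overlap and 18 to 40 with 1 library left out (40 without MYC replicate 1). The labels do not say that replicate numbers pair cultures, and deviations of same-numbered ATF4 libraries correlated at 0.0976 over the common regions. With the replicate block 0 regions were called by limma against 39 without it, with 37 higher at an unadjusted p under 0.05. Leaving out any ATF4 library also gave 0 to 0, and 35 to 39 were called with other pseudocounts or a mean of at least 8 tags. With each library centred on its median 0 were called higher, the median difference was -0.11, and the log2 differences reversed at LARP6 (-0.12), ARHGAP23 (-0.23), MRPL33 (-0.10) and NRSN2 (-0.26). At LOC124902669 they reversed to 0.09 and 0.37 without control or activated replicate 1, within a range of -0.58 to 0.37 over the libraries left out. The cause was not tested. In replicate 1 the median member rests on 13 reads, which limits the precision of its tags.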
